A study of Homo sapiens with 12 samples.

Results

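The genes described are 9 that store or release triglyceride at the lipid droplet, measured in HCT116, an established human colorectal cancer cell line: HILPDA, PLIN2, PLIN3, PNPLA2, ABHD5, DGAT1, DGAT2, LPIN1 and VLDLR. They were taken by name, with earlier results of these data known, out of 56537 gene names in the table of transcripts. The level of a gene is the summed abundance of its transcripts that either match a reference transcript (class code =) or share a splice junction with one (class code j), and 117 of the 293768 transcripts belonged to the 9 genes. A total of 8 of the 9 exceeded 0.5 in at least 3 libraries, as did 16680 gene names in all, and only these were tested; VLDLR did not. HCT116 cells were grown in 21% oxygen (0 h) or placed in 1% oxygen for 1, 2 or 24 h, with 3 libraries of strand-specific poly(A) RNA at each time, 12 in total, and no other treatment distinguished the groups. HCT116 is 1 cell line, and p-values measure the spread between libraries of that line, which the study calls biological replicates in a legend while the labels give them only a number. Cells entered 1% oxygen 24 h after plating, so unless the 0 h cells were held back for an equal time, which is not given in the sources used here, time since plating and hypoxia cannot be told apart at 24 h.

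Cells store surplus fatty acids as triglyceride in lipid droplets, which carry a protein coat. LPIN1 (lipin 1) makes the diacylglycerol that DGAT1 and DGAT2 turn into triglyceride, the perilipins PLIN2 and PLIN3 coat the droplet, and PNPLA2 (adipose triglyceride lipase) with its coactivator ABHD5 begins the release of fatty acids. HILPDA is a small droplet protein, induced by hypoxia through HIF-1 in many cell types, that binds and inhibits PNPLA2; VLDLR is a receptor that brings lipoproteins to the cell.

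Abundance was given as FPKM, the number of fragments for each kilobase of a transcript and each 1000000 mapped, so levels are per length and can be set side by side between genes. The deposited values hold no read counts per transcript, so error is given as the spread between replicates and no counting error was computed. Pearson's r between replicates across transcripts was 0.965 to 0.988, and no libraries held identical values. Markers of the colorectal epithelium were all present, with 5 of 5 past the filter and a summed FPKM of 1998 to 2820 at 0 h and 2491 to 2730 at 24 h, within which CDH1 rose 3.38-fold, KRT19 was 1.99-fold higher (limma adjusted p = 8.5e-07 and 1.7e-05), and EPCAM, KRT8 and KRT18 did not pass the test. None of 5 adipocyte markers passed (ADIPOQ, LEP and FABP4 were listed at 0 in every library), nor did any of 3 hepatocyte markers. Of 3 leukocyte markers CD68 passed, and their sum was 1.80 to 2.31 at 0 h and 6.98 to 14.2 at 24 h, with PTPRC listed at 0 in all libraries but a single 1 h library. Of 4 fibroblast and endothelial markers COL1A1 passed, with sums of 1.81 to 2.17 and 5.81 to 8.84 and PECAM1 listed at 0. The part of these marker changes in the results was not tested.

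At 24 h, HILPDA and PLIN2 rose and ABHD5 fell. A gene was called when its level changed by more than 2-fold with an adjusted p under 0.01 (limma on log2(FPKM + 0.5), Benjamini-Hochberg over all 16680 genes), a scale that understates the change of genes with low levels. Of the 8 genes tested, 2 were called higher and 1 lower at 24 h relative to 0 h, where 8.76% of all genes were called higher, 9.51% lower and 18.3% in either direction. With an adjusted p under 0.05 and no minimum fold, 5 of the 8 were higher and 1 lower, against 25% and 30.3% of all genes. The median log2 change of the 8 was 0.75, and that of all genes was -0.05. No member was called at 1 h, where 0.006% of all genes were, or at 2 h, where 0.018% were; with an unadjusted limma p under 0.05 there were 0 at 1 h and 2 at 2 h (HILPDA and DGAT1), against 4.61% and 15.3% of all genes. Between 2 h and 24 h, HILPDA, PLIN2 and ABHD5 were called, with log2 changes of 2.06, 1.09 and -1.13, against 14.7% of all genes. PLIN2 was no longer called there without 24 h replicate 3 (log2 change 0.98, limma adjusted p = 2.62e-05), nor were PLIN2 and ABHD5 on the TPM scale (1.21 and -0.80, limma adjusted p = 0.0465 and 0.236). The 3 comparisons with 0 h share the same control libraries, and that of 24 h with 2 h shares the 24 h libraries with that of 24 h with 0 h.

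The values are scaled as the authors left them, and that choice bears on the members that changed by less. When each library was rescaled to a sum of 1000000 over all transcripts (TPM), the median log2 change of all genes at 24 h moved from -0.05 to -0.78, and the log2 changes of PLIN3, DGAT1, DGAT2 and LPIN1 turned to -0.05, -0.64, -0.36 and -0.05. Transcripts under 300 bases carried between 57.0% and 87.6% of the FPKM in a library. Relative to the median gene, the log2 changes at 24 h on the deposited and the TPM scale were 2.88 and 2.71 for HILPDA, 1.09 and 0.96 for PLIN2, 0.87 and 0.73 for PLIN3, 0.92 and 0.80 for PNPLA2, 0.74 and 0.73 for LPIN1, and -1.25 and -1.17 for ABHD5. DGAT1 stood at 0.23 and 0.14 and DGAT2 at 0.16 and 0.42. So measured, all 8 genes kept their direction under both scales, with the size of DGAT2 moving most.

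**Figure D1:**
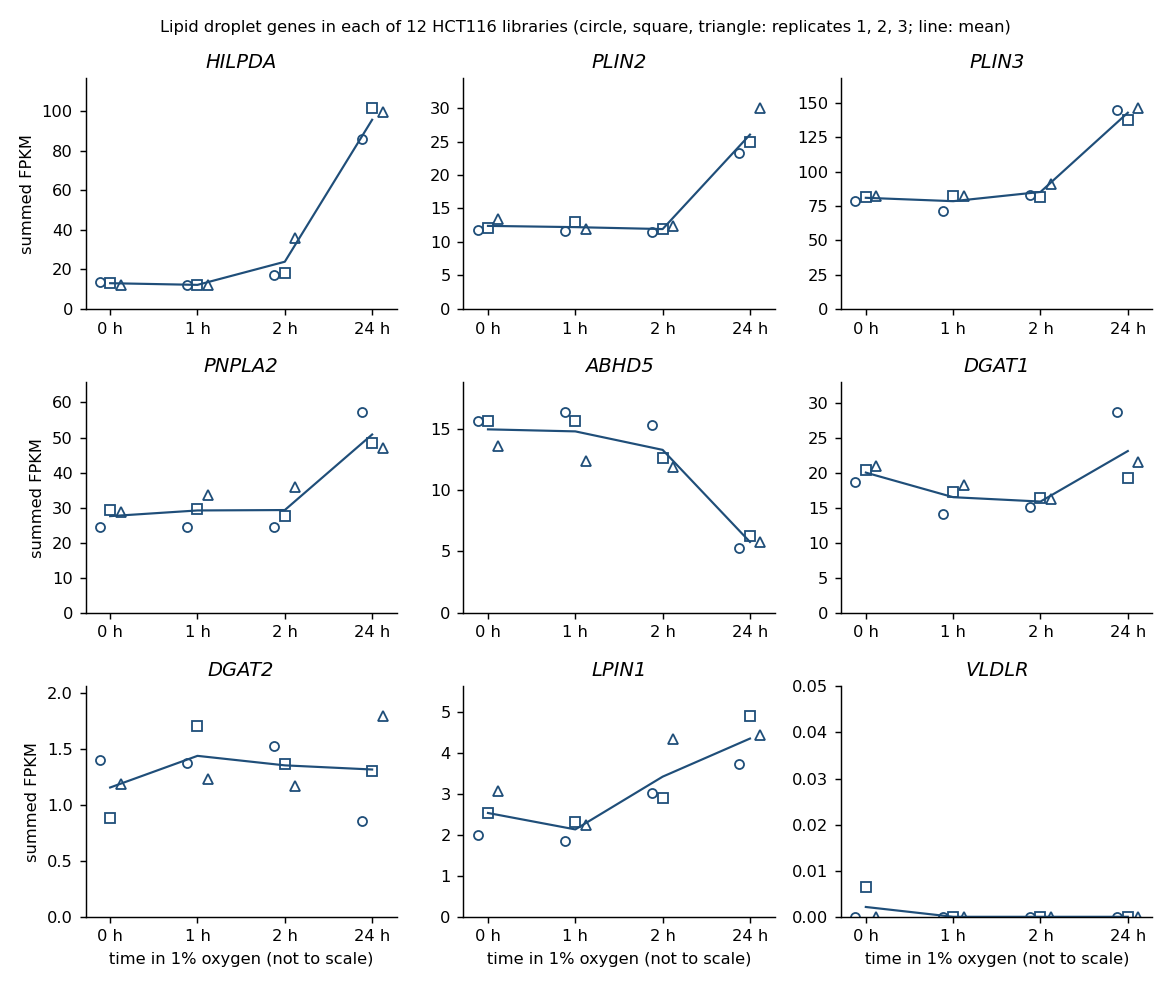
Summed FPKM of each of the 9 genes in the 12 libraries (vertical axis, starting at 0 and differing between panels) by time in 1% oxygen (horizontal axis, not to scale); markers are the replicates and the line joins the means of 3. HILPDA lies between 86.0 and 102 at 24 h, ABHD5 between 5.30 and 6.23, and VLDLR is at or near 0 throughout.

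HILPDA changed most among the 8 genes tested. Its FPKM was 13.5, 13.3 and 12.1 at 0 h, 12.2, 12.01 and 12.3 at 1 h, 17.4, 18.2 and 36.1 at 2 h, and 86.0, 102 and 99.9 at 24 h. All 24 h libraries lay above every other library, and the 2 h libraries lay above those at 0 h with replicate 3 standing apart. The mean rose from 13.0 ± 0.759 at 0 h to 95.8 ± 8.504 at 24 h (SD, n = 3), a log2 change of 2.83 (SE 0.21, limma adjusted p = 1.0e-06), or 7.12-fold. At 2 h the log2 change was 0.77 (SE 0.21), with an unadjusted limma p of 0.0033 that did not pass adjustment (adjusted p = 0.143). Without replicate 3 at 2 h it was 0.44 (limma adjusted p = 0.23, over all alternatives 0.0808 to 0.534), and on the TPM scale it turned to -0.27, which is 0.67 above the median gene. At 1 h the log2 change was -0.09, with a 95% interval of -0.55 to 0.37.

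The HILPDA gene lies on the plus strand at chr7:128095903-128098472 (GRCh37). In the assembly it shares a locus with METTL2B, RP11-155G14.5, RP11-155G14.6 and RP11-212P7.3, all on the same strand, so that its reads may be divided between models of several names. RP11-155G14.6, a long noncoding RNA at chr7:128095991-128109251, and RP11-212P7.3, another at chr7:128095894-128133913, overlap HILPDA directly. RP11-155G14.5, a transcribed pseudogene at chr7:128106617-128109225, begins 8145 bases beyond the end of HILPDA. RP11-155G14.5 measured 1.46, 1.13 and 1.56 FPKM at 0 h and 7.41, 9.09 and 5.90 at 24 h, a log2 rise of 2.07 (SE 0.33, limma adjusted p = 0.00021). METTL2B, farther along the strand, went the other way, from a mean of 32.8 ± 2.86 to 17.5 ± 1.90 FPKM (SD, n = 3; log2 change -0.89, limma adjusted p = 9.9e-05), which was under 2-fold. The log2 changes of RP11-155G14.6 and RP11-212P7.3 were 0.84 and 0.76 (limma adjusted p = 0.045 and 0.49).

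Both leading transcripts of HILPDA rose at 24 h. They are a model of 1349 bases and one of 9480 bases, both matched to the same protein-coding reference transcript, the second being 8131 bases longer. The shorter model measured 13.1, 12.1 and 10.8 FPKM at 0 h and 71.5, 84.3 and 84.3 at 24 h (log2 change 2.69, SE 0.24, limma adjusted p = 3.4e-05). The longer measured 0.376, 0.492 and 0.521 at 0 h, 0.463, 0.613 and 0.320 at 1 h, 0.675, 0.721 and 1.76 at 2 h, and 11.2, 11.7 and 13.7 at 24 h (log2 change 3.72, SE 0.27, limma adjusted p = 9.7e-06). In neither model did the 24 h libraries overlap those at 0 h. The longer model held 3.59% ± 0.764 of the HILPDA FPKM at 0 h and 12.8% ± 1.11 at 24 h (SD, n = 3; exact two-sided permutation p = 0.1, the smallest that 3 against 3 can give). Both models share a start-site group, and the locus begins at chr7:128095873. Their reference transcript spans chr7:128095932-128098472, a stretch shorter than the longer model, so most of the additional bases must lie beyond its end. The exon coordinates of these models were not analysed here, and their overlap with other models of the locus was not tested.

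**Figure D2:**
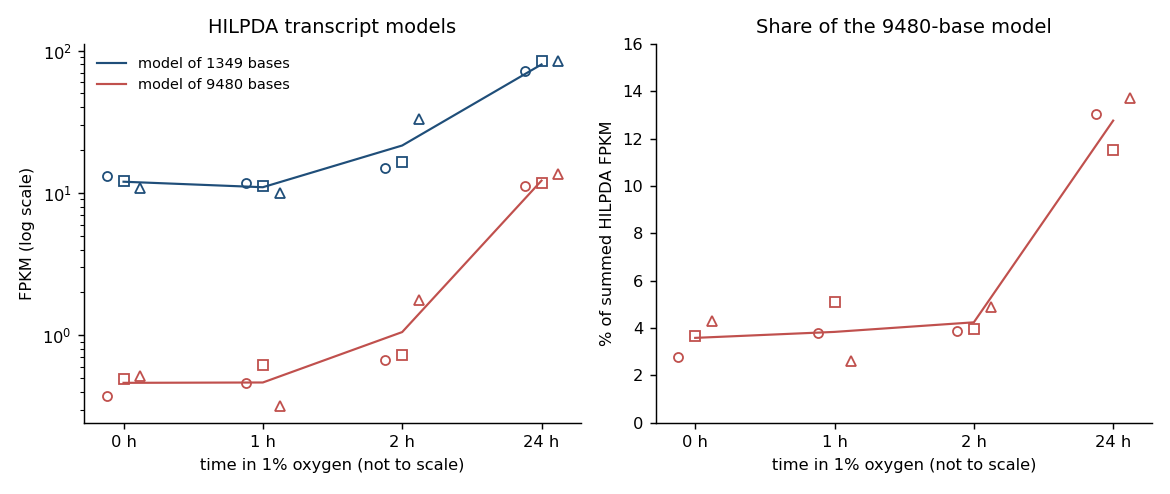
Left, FPKM (log scale) of the 1349-base and 9480-base HILPDA models in each library by time in 1% oxygen (not to scale); right, the share of HILPDA FPKM in the longer model, in percent. Markers are replicates and lines join the means of 3; the share lies between 11.5% and 13.7% at 24 h and between 2.61% and 5.10% in all earlier libraries.

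The droplet coat proteins PLIN2 and PLIN3 both measured more FPKM in each 24 h library than in any earlier one, and PLIN3 stood at the higher level throughout. PLIN2, the perilipin most tied to lipid loading in cells other than adipocytes, measured 11.7, 12.1 and 13.4 FPKM at 0 h, 11.7, 13.0 and 11.998 at 1 h, 11.4, 11.99 and 12.3 at 2 h, and 23.3, 24.9 and 29.9 at 24 h. The earlier groups overlapped and all 24 h libraries lay above them. The log2 change at 24 h was 1.03 (SE 0.11, limma adjusted p = 1.1e-05), or 2.05-fold, close to the 2-fold limit. It stood at 1.00 without 0 h replicate 1, at 0.93 without 24 h replicate 3 and at 0.18 on the TPM scale, each no longer called (limma adjusted p = 0.000107, 3.0e-05 and 0.729, over all alternatives 7.1e-06 to 0.729). Its leading transcript, of 1972 bases, was called with a log2 change of 1.01 (limma adjusted p = 0.00029). A model of 790 bases measured 0.0969, 0.198 and 0.452 FPKM at 0 h and 0.546, 0.925 and 1.07 at 24 h, and exceeded 0.5 in the 24 h libraries alone.

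PLIN3, a perilipin that moves between cytosol and nascent droplets, was the member with the highest level at every time. It measured 78.7, 81.5 and 82.4 FPKM at 0 h, 71.4, 81.8 and 82.0 at 1 h, 83.0, 81.3 and 91.0 at 2 h, and 145, 138 and 146 at 24 h, where no library overlapped an earlier one. The log2 change at 24 h was 0.82 (SE 0.08, limma adjusted p = 8.3e-06), or 1.76-fold on the deposited scale and -0.05 on the TPM scale, under the 2-fold limit in both. Its leading transcript of 2333 bases changed by 0.79 on the log2 scale (limma adjusted p = 0.00012), and the model of 1535 bases by 1.31 with a wide error (SE 0.64, limma adjusted p = 0.16). Within a library, the ratio of PLIN2 to PLIN3 averaged 0.153 ± 0.00809 in the 0 h and 0.182 ± 0.0224 in the 24 h libraries (SD, n = 3), and the groups overlapped (exact two-sided permutation p = 0.2, where 0.1 is the smallest that 3 against 3 libraries allow).

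PNPLA2, the lipase, had a higher level at 24 h, but did not reach 2-fold. Its FPKM was 24.4, 29.5 and 28.9 at 0 h, 24.5, 29.5 and 33.6 at 1 h, 24.4, 27.7 and 35.8 at 2 h, and 57.1, 48.3 and 47.1 at 24 h. The earlier libraries spread widely and overlapped, and the 24 h libraries lay above them all. The log2 change at 24 h was 0.87 (SE 0.15, limma adjusted p = 0.00047), or 1.83-fold, and 0.01 on the TPM scale (limma adjusted p = 0.983, over all alternatives 0.00024 to 0.983). The leading transcript, of 2428 bases, changed by 0.82 on the log2 scale (limma adjusted p = 0.0086), and a retained-intron transcript of 465 bases by 0.69 (limma adjusted p = 0.11). Of the other 5 past the filter, that of 637 bases was called, with a log2 change of 1.73 (named after its value was seen). One of 1301 bases passed the filter only with the 24 h libraries, so no test of it is given.

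ABHD5, the coactivator of PNPLA2, was the member that fell. It measured 15.6, 15.7 and 13.6 FPKM at 0 h, 16.3, 15.7 and 12.4 at 1 h, 15.3, 12.6 and 11.9 at 2 h, and 5.30, 6.23 and 5.80 at 24 h. All 24 h libraries lay below every other library. The mean went from 15.0 ± 1.196 to 5.78 ± 0.464 (SD, n = 3), a log2 change of -1.30 (SE 0.13, limma adjusted p = 8.8e-06), or 0.406-fold. Its leading transcript, of 1690 bases, fell by 1.35 on the log2 scale (limma adjusted p = 0.00019), and the model of 5158 bases had a log2 change of -1.20 (limma adjusted p = 0.033). The fall of ABHD5 and the rise of HILPDA passed both thresholds in all 17 alternatives tried, with log2 changes of -1.95 to -1.23 and 1.93 to 2.91.

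Ratios within a library do not depend on how libraries are scaled against each other. The ratio of HILPDA to PNPLA2 was 0.555, 0.453 and 0.420 at 0 h, 0.498, 0.407 and 0.365 at 1 h, 0.712, 0.657 and 1.01 at 2 h, and 1.51, 2.102 and 2.12 at 24 h. Summed HILPDA was thus below summed PNPLA2 in every 0 h library and above it in every 24 h library. The mean ratio was 0.476 ± 0.0703 and 1.91 ± 0.349 (SD, n = 3), a log2 change of 2.00. The PNPLA2 sum includes retained-intron transcripts. Its leading model alone measured 14.2, 15.3 and 16.5 FPKM at 0 h, where HILPDA, at 13.5, 13.3 and 12.1, lay closer to it, and 32.7, 23.4 and 26.8 at 24 h. The ratio of ABHD5 to PNPLA2 went the other way, from 0.640, 0.532 and 0.470 at 0 h to 0.0928, 0.129 and 0.123 at 24 h, a log2 change of -2.26. For both ratios the groups at 0 h and 24 h did not overlap, and the exact two-sided permutation p was 0.1, the smallest that 3 against 3 allows; 4 ratios were tested, and none can pass 0.05. These are ratios of RNA, and protein was not measured here.

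**Figure D3:**
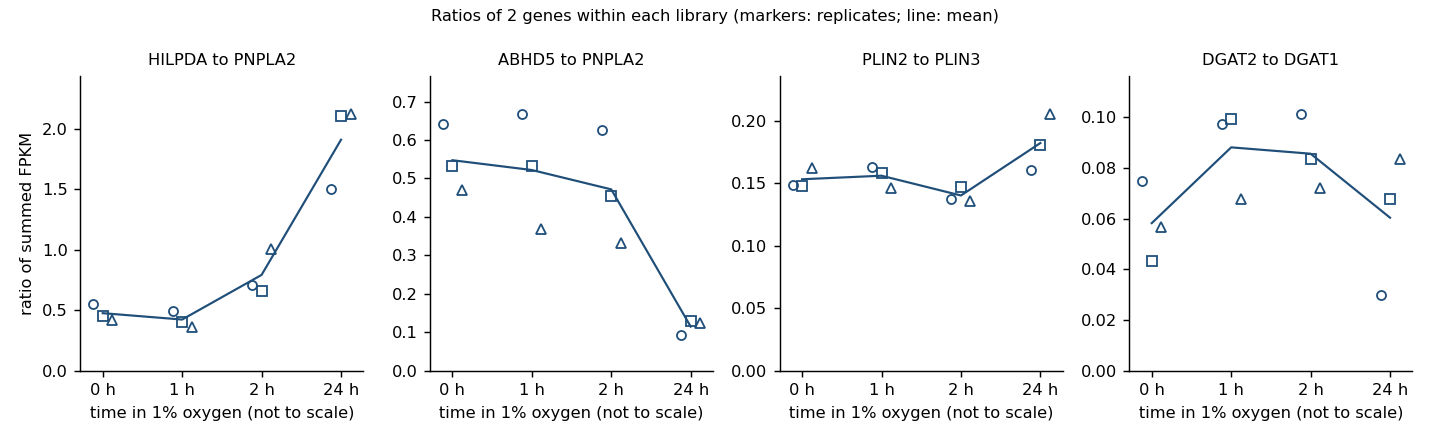
Ratio of summed FPKM between 2 genes within each library (vertical axis, starting at 0) by time in 1% oxygen (not to scale), with markers for replicates and a line through the means of 3. HILPDA to PNPLA2 lies between 1.51 and 2.12 at 24 h and at 1.01 or below before, ABHD5 to PNPLA2 lies between 0.0928 and 0.129 at 24 h and at 0.333 or above before, and the other ratios overlap between 0 h and 24 h.

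The triglyceride-forming enzymes DGAT1 and DGAT2 did not pass the test at 24 h. DGAT1 measured 18.7, 20.4 and 20.9 FPKM at 0 h, 14.1, 17.2 and 18.2 at 1 h, 15.1, 16.4 and 16.2 at 2 h, and 28.6, 19.2 and 21.5 at 24 h. The 1 h and 2 h libraries lay below those at 0 h, and the 24 h libraries overlapped them, with replicate 1 apart. The log2 change was -0.28 at 1 h, -0.32 at 2 h (limma unadjusted p = 0.041, adjusted p = 0.308) and 0.18 at 24 h (limma adjusted p = 0.294), with a 95% interval of -0.13 to 0.49 at 24 h. From 2 h to 24 h it was 0.51 (limma adjusted p = 0.010), which is 1.42-fold. Its 2 leading transcripts, of 2004 bases and, a retained-intron transcript, of 1336 bases, had log2 changes of 0.16 and 0.74 at 24 h (limma adjusted p = 0.56 and 0.11).

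DGAT2 was low throughout, at 1.40, 0.884 and 1.18 FPKM at 0 h, 1.37, 1.71 and 1.24 at 1 h, 1.52, 1.37 and 1.17 at 2 h, and 0.857, 1.30 and 1.79 at 24 h. All groups overlapped. The log2 change at 24 h was 0.11 with a 95% interval of -0.34 to 0.57 (limma adjusted p = 0.672). The makeup of its signal is described beside its sum, without a test between them. The start-site group with the highest level held 81.0% ± 15.9 of DGAT2 FPKM in the 0 h libraries and 53.0% ± 9.40 in the 24 h libraries (SD, n = 3). It was 58.4% ± 7.07 after 1 h and 57.8% ± 14.8 after 2 h, where libraries overlapped those at 0 h. The 0 h and 24 h libraries did not overlap (exact two-sided permutation p = 0.1, the smallest possible). Of 8 genes so tested PLIN2 alone shared this, with 98.0% and 95.6%. How many of all genes would do so was not computed, so this count supports nothing further. The full-length transcript of 2453 bases measured 0.919, 0.705 and 1.153 FPKM at 0 h and 0.474, 0.555 and 1.09 at 24 h (log2 change -0.26, limma adjusted p = 0.49). A model of 885 bases stood at 0, 3.19e-05 and 0.0122 FPKM in the 0 h libraries, at 0.0398, 0 and 0.258 at 1 h, at 0.619, 0.422 and 0 at 2 h and at 0.255, 0.734 and 0.618 at 24 h; it passed the filter only with the 24 h libraries, and no test of it is given. The ratio of DGAT2 to DGAT1 averaged 0.0582 ± 0.0159 in the 0 h and 0.0603 ± 0.0275 in the 24 h libraries (SD, n = 3; exact two-sided permutation p = 1).

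LPIN1 measured 2.00, 2.54 and 3.08 FPKM at 0 h, 1.86, 2.31 and 2.24 at 1 h, 3.02, 2.91 and 4.34 at 2 h, and 3.74, 4.90 and 4.43 at 24 h. The 24 h libraries lay above those at 0 h and overlapped those at 2 h. The log2 change at 24 h was 0.69 (SE 0.18, limma adjusted p = 0.0072), or 1.61-fold. This difference was not carried by the main transcript: that of 5384 bases, a full match to the reference, had a log2 change of 0.01 (SE 0.27, limma adjusted p = 0.98), and one of 5378 bases, nearest to a reference typed as nonsense-mediated decay, of 1.12 (SE 0.40, limma adjusted p = 0.059). With only full matches summed the change was 0.38 (limma adjusted p = 0.236), with only transcripts past the filter 0.38 (limma adjusted p = 0.155), and on the TPM scale -0.05 (limma adjusted p = 0.909), over all alternatives 0.00222 to 0.909.

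VLDLR was listed at 0 in all libraries other than 0 h replicate 2, where it was 0.00639 FPKM. None of 20 housekeeping genes was listed at 0 in any library, the lowest value being 9.17. A model on the opposite strand carried the VLDLR name at 0.0181 to 0.245 FPKM, and was left out by the class codes required. No fold change is given for VLDLR.

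**Figure D4:**
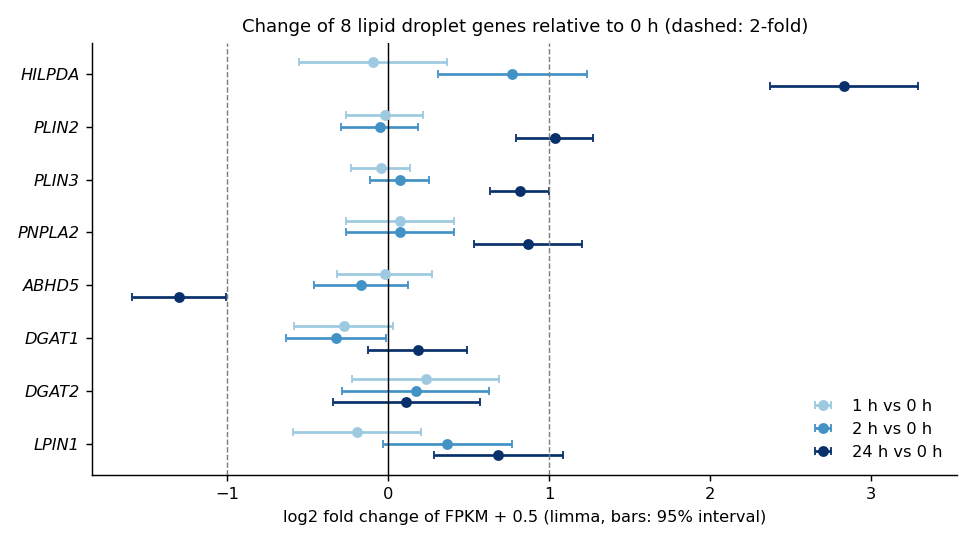
Log2 fold change of FPKM + 0.5 (horizontal axis) of the 8 genes tested at 1, 2 and 24 h relative to 0 h on the deposited scale, with points for limma estimates, bars for 95% intervals and dashed lines at 2-fold. At 24 h HILPDA (2.83) and PLIN2 (1.03) lie above 2-fold and ABHD5 (-1.30) beyond it on the other side, and PLIN3, DGAT1, DGAT2 and LPIN1 change sign at 24 h on the TPM scale.

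The order of levels changed between 0 h and 24 h. At 0 h, PLIN3 (80.9 ± 1.93 FPKM) was followed by PNPLA2 (27.6 ± 2.77), DGAT1 (20.0 ± 1.198), ABHD5 (15.0 ± 1.196), HILPDA (13.0 ± 0.759), PLIN2 (12.4 ± 0.881), LPIN1 (2.54 ± 0.539) and DGAT2 (1.16 ± 0.258), with SDs over 3 libraries. Of these neighbours only HILPDA and PLIN2 overlapped in their libraries. At 24 h PLIN3 (143 ± 4.53) was followed by HILPDA (95.8 ± 8.504), PNPLA2 (50.9 ± 5.48), PLIN2 (26.0 ± 3.48), DGAT1 (23.1 ± 4.90), ABHD5 (5.78 ± 0.464), LPIN1 (4.36 ± 0.583) and DGAT2 (1.32 ± 0.467). Here only PLIN2 and DGAT1 overlapped, and HILPDA stood in the second place. Among the 33 member transcripts past the filter, 6 were called higher and 1 lower at 24 h, where 5% and 6.49% of all 62162 transcripts were. Of the 6, 2 had passed the filter only through the 24 h libraries, so this count supports nothing further.

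The promoters of 6 of the 9 members were in the RefSeq table of promoters, and HILPDA, DGAT1 and DGAT2 were missing from it. Where a gene had several entries, the one nearest the start of its leading transcript was taken. The 250 bases before the start site are shown for PLIN2 and ABHD5, the called genes with an entry, which moved in opposite directions, and for PLIN3, the relative of PLIN2. Capitals mark the letters ACGTG or GCGTG on either strand (CACGT or CACGC when read on the other), the core to which HIF factors bind, with overlapping matches joined. All are written 5′ to 3′ on the strand of the gene, on GRCh37.
PLIN2, chr9:19127491-19127740, minus strand: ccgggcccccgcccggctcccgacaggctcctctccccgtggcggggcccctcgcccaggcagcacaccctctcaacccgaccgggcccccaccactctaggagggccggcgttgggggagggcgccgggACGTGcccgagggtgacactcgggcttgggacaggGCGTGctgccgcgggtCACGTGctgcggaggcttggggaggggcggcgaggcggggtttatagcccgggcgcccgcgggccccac
PLIN3, chr19:4867680-4867929, minus strand: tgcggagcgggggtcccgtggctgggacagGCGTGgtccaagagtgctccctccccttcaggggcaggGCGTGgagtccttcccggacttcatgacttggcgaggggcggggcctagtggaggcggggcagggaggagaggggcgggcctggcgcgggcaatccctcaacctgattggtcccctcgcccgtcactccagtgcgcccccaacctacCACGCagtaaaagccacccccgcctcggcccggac
ABHD5, chr3:43732112-43732361, plus strand: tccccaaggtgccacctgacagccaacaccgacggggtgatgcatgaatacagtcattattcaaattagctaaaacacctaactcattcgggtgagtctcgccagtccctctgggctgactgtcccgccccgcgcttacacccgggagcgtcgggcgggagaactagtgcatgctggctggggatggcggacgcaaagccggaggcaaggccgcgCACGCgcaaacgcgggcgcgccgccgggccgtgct
PLIN2 held 3 marked stretches, the first beginning at position -120 and the last, which reads the same on both strands, at position -69 from the start site. PLIN3 held 3, from position -220 to -35, and ABHD5 held 1, at position -35. The other entries of ABHD5 held 1 and 0. PNPLA2 and LPIN1 held none in this window (the other LPIN1 entries held 0 and 1), and VLDLR, which was at or near 0, held 4. Among 35116 promoters of the same length, 43.2% held at least 1 such stretch and 5.56% held 3 or more, with ACGTG in 18.5% and GCGTG in 32.2%. A match in these letters is a description of the sequence, and no binding was measured here.

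The genes whose pattern over the 12 libraries was most like that of HILPDA were ANGPTL4, AVPI1, RNASE4, PPP1R3B and TMED7-TICAM2, with Pearson's r of log2(FPKM + 0.5) of 0.993, 0.991, 0.989, 0.988 and 0.987 among 10268 genes with a mean FPKM of at least 5. RNASE4 and PPP1R3B reached that mean only through the 24 h libraries (means of 15.9 and 15.5, against 2.85 and 3.16 at 2 h). Their places in the ranking therefore support nothing further. ANGPTL4, a secreted inhibitor of lipoprotein lipase, measured 1.72, 1.77 and 1.499 FPKM at 0 h, 4.71, 5.54 and 31.7 at 2 h, and 130, 171 and 183 at 24 h. As for HILPDA, replicate 3 was the highest of the 2 h libraries. PLIN3 ranked 41 (r = 0.965), PLIN2 467 (r = 0.918), PNPLA2 701 (r = 0.899), DGAT1 2943 (r = 0.528) and ABHD5 9966 (r = -0.951). The points of each correlation share their libraries and fall mostly into the 24 h libraries and the rest, so r describes that contrast.

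Related genes of the same pathways were called in both directions. Of 96 genes in 6 lists, 73 were tested, and 10 were called higher and 6 lower at 24 h, where 8.76% and 9.51% of all genes were; the median log2 change was -0.02. At 1 h and 2 h limma called none of the 73, with 1 and 8 at an unadjusted p under 0.05, shares no higher than those of all genes. Among 9 tested genes of droplet coat and assembly, 1 was called higher and 2 lower: TMEM159 (promethin), a partner of seipin in droplet formation, had a log2 change of 1.29 (limma adjusted p = 4.4e-05), and BSCL2, which encodes seipin, one of -1.08 (limma adjusted p = 0.00043). TMEM159 measured 11.5, 11.4 and 13.6 FPKM at 0 h and 34.7, 32.7 and 25.0 at 24 h, and BSCL2 11.03, 7.62 and 6.77 and then 3.50, 4.23 and 3.32, without overlap in either. Among 9 tested genes of lipolysis, DDHD2, a triglyceride and phospholipid hydrolase, was the 1 called (log2 change 1.32, limma adjusted p = 3.4e-06), and none was called lower.

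Of 15 tested genes of triglyceride and sterol ester synthesis, 2 were called higher and 2 lower, against 8.76% and 9.51% of all genes. With an adjusted p under 0.05 and no minimum fold 3 were higher and 8 lower, against 25% and 30.3% of all genes. AGPAT4, an acyltransferase that acts on lysophospholipids, rose by 2.99 on the log2 scale (SE 0.23, limma adjusted p = 1.0e-06), from 2.85, 2.04 and 2.52 FPKM at 0 h to 24.2, 22.0 and 22.7 at 24 h. GPAM, the mitochondrial enzyme of the first acylation of glycerol 3-phosphate, measured 12.7, 12.2 and 12.6 at 0 h and 3.87, 3.46 and 5.02 at 24 h (log2 change -1.51, SE 0.14, limma adjusted p = 3.6e-06). Genes of lipid and lipoprotein uptake held 4 called higher and 2 lower of 13 tested, beside the same 8.76% and 9.51% of all genes. In that list ANGPTL4 had a log2 change of 6.21 (SE 0.53, limma adjusted p = 2.2e-06) and SLC27A4, a fatty acid transport protein, one of -1.66 (SE 0.13, limma adjusted p = 1.3e-06). Of 6 tested genes of fatty acid activation none was called, 1 being higher and 1 lower with an adjusted p under 0.05 alone (limma) and 2 having an unadjusted p under 0.05, which 60% of all genes had. Of 21 genes of fatty acid oxidation 2 were called higher and none lower, and 7 were higher and 5 lower by the looser rule. The larger called change was that of PPARG, a nuclear receptor of lipid metabolism (log2 change 1.78, SE 0.27, limma adjusted p = 0.00014). The other was that of PPARA, also a nuclear receptor (log2 change 1.35, limma adjusted p = 3.8e-05), so no enzyme or carrier of the list was called.

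**Figure D5:**
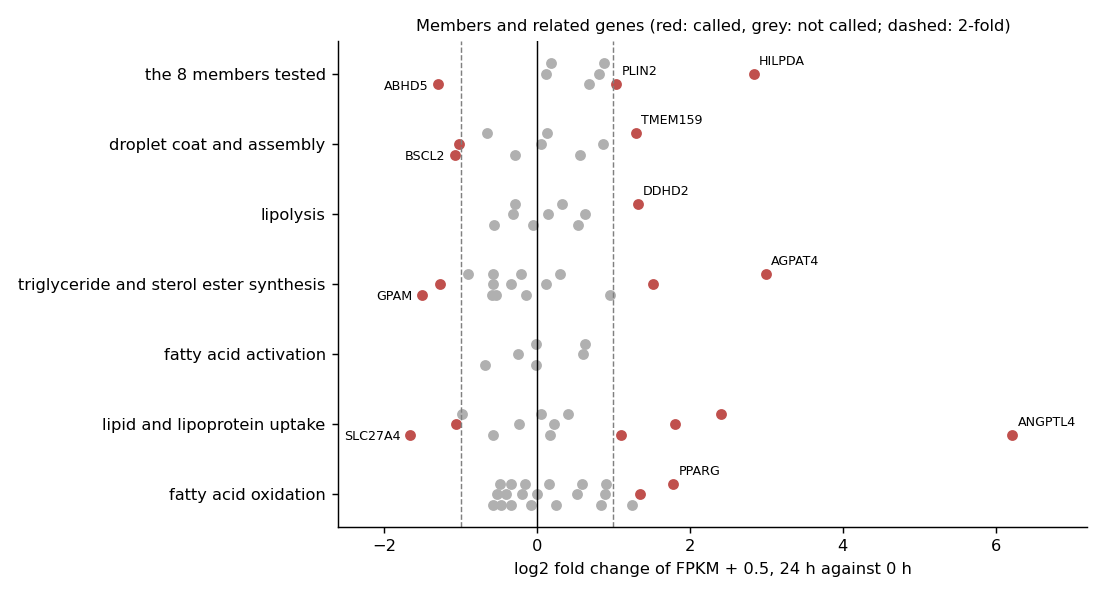
Log2 fold change of FPKM + 0.5 at 24 h against 0 h (horizontal axis) of the 8 members tested and of related genes in 6 lists (rows), 1 point a gene on the deposited scale, with called genes in red, others in grey and dashed lines at 2-fold. Called genes lie on both sides in 3 of the 6 lists, from -1.66 (SLC27A4) to 6.21 (ANGPTL4).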

How the data were processed

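The authors sequenced strand-specific poly(A) libraries from HCT116 cells, aligned the reads to hg19 (GRCh37), assembled transcripts with Cufflinks, merged them with Ensembl release 74 and deposited 1 FPKM value per transcript and library (CASAVA 1.8.2 is named in their processing notes). The deposited attribute table holds the class code, gene name, start-site group and transcript length in bases, a value of another kind than abundance. No normalisation between libraries is given in the sources used here, and the sum of FPKM differed between libraries, so that rescaling to a fixed sum, as TPM does, moves all genes of a library. All 12 columns of values were used, and 0 were left out.

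FPKM was summed per gene name over transcripts of class = or j. Genes above 0.5 FPKM in at least 3 libraries were tested with limma 3.58.1 in R 4.3.3 (lmFit and eBayes with trend, all 12 libraries) on log2(FPKM + 0.5), two-sided, with Benjamini-Hochberg adjustment, and called, as in the study, where the fold exceeded 2 at an adjusted p under 0.01. Transcripts were tested likewise. Ratios and start-site shares were compared by exact two-sided permutation tests. Permutation tests used scipy 1.17.1 and plots matplotlib 3.10.9, with pandas 2.3.3 and numpy 2.4.6 under Python 3.11.15. Transcript types and gene coordinates came from GENCODE release 44 on GRCh37, and promoters from RefSeq, matched exactly to GRCh37.

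Deviations from the group means of libraries with the same replicate number correlated above 0.1 in 10 of 18 pairs (mean 0.154, from -0.083 to 0.428). All 3 pairs of 0 h with 2 h did (0.246, 0.129 and 0.362), as did those of 1 h with 2 h (0.347, 0.117 and 0.428), which were not compared. Between 0 h and 1 h (0.298, 0.0954 and 0.340) or 0 h and 24 h (-0.00078, 0.0055 and 0.242) not all did. Only 5 of 12 libraries deviated most like their own number in every other group. No label ties the libraries, so whether the numbers pair them is not settled.

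The members, the related gene lists, the markers and the tests were chosen with earlier results of these data known. Named were all members, in each list the called genes with the largest rise and the largest fall, for each member the 2 transcripts with the highest mean FPKM, and the 5 genes most like HILPDA. Alternatives varied the pseudocount, filters, class codes, scaling, libraries in the fit and replicate block; TPM over models of 300 bases or more was added after seeing the data.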

Additional observations from a re-analysis of the deposited data

How the results depend on the processing

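HILPDA and ABHD5 were called at 24 h in all 17 alternatives. TPM scaling turned the log2 change at 1 h of PNPLA2 (-0.54) and DGAT2 (-0.14), at 2 h of HILPDA (-0.27), PLIN3 (-1.004), PNPLA2 (-0.97), DGAT2 (-0.40) and LPIN1 (-0.45), and at 24 h of PLIN3 (-0.053), DGAT1 (-0.64), DGAT2 (-0.36) and LPIN1 (-0.049); by its own construction it shifts all genes of a library together, and the median gene stood at -0.56, -0.94 and -0.78 at these times, against -0.0071, -0.018 and -0.051. Of all genes it called 28 at 1 h, 540 at 2 h and 630 between 2 h and 24 h (1 of them a member), against 1, 3 and 2456, and at 24 h 209 higher and 3995 lower against 1462 and 1586; median-of-ratios scaling called 1645 and 1379. TPM over models of 300 bases or more, chosen after seeing the data, put the median gene at -0.13 and left PLIN2 at 0.95, under 2-fold, while the other 7 members tested kept their direction and call at 24 h. At 1 h no gene was called with only the libraries of the comparison, with no filter or with transcripts of at least 300 bases (0 in each), and 0 to 0 with a replicate left out; 769 genes had an unadjusted p under 0.05 (limma). At 2 h the count was 6 with a pseudocount of 0.1, 1 with only the libraries of the comparison, 0 with no filter, 5 with transcripts past the filter, 7 with transcripts of at least 300 bases, 52 with an adjusted p under 0.05 alone and 0 to 6 with a replicate left out. That looser rule gave 9228 genes at 24 h (6 members) and 8435 between 2 h and 24 h (6 members). Transcripts called at 24 h numbered 4457 with only the libraries of the comparison and 4675 to 5627 with a replicate left out, the lowest without 0 h replicate 1, against 3111 higher and 4037 lower. With full matches only, ABHD5 at 1 h was 0.072. With a replicate left out, log2 changes that crossed 0 ranged at 1 h from -0.031 to 0.19 (PNPLA2), -0.097 to 0.097 (ABHD5), -0.063 to 0.035 (PLIN2) and -0.080 to 0.019 (PLIN3), at 2 h from -0.077 to 0.19 (PNPLA2) and -0.090 to 0.0021 (PLIN2), and at 24 h from -0.071 to 0.31 (DGAT2). The ratio of DGAT2 to DGAT1 changed by -0.33 to 0.40 with a replicate left out, 0.12 with transcripts past the filter and 0.14 with full matches. Beyond TPM, the cause of these shifts was not tested. A replicate block called 0 genes at 1 h, 4 at 2 h, 3106 at 24 h and 2494 between 2 h and 24 h, with 3 members in both of the last. In every other group, 5 of 12 libraries deviated most like the library of their own number, and the block changed no call of a member. Counting error of low values such as those of DGAT2 was not computed, as the values hold no counts per transcript.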
